A study of Mus musculus with 12 samples.

Results

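Tumor necrosis factor (TNF) superfamily receptors carry the signals of TNF and related ligands into the cell. 10 of them were followed here across M1-activated bone-marrow macrophages: Tnfrsf1a, Tnfrsf1b, Cd40, Fas, Ltbr, Tnfrsf9, Tnfrsf10b, Tnfrsf11a, Tnfrsf14 and Tnfrsf21. They were picked by name out of the 22243 genes of the deposited table, and all 10 were listed in it. Of these, 8 had a mean of at least 1 TPM (transcript abundance corrected for transcript length and scaled to the same total in every library) and entered the test, as did 8780 genes in all. Tnfrsf9 and Tnfrsf10b fell below that level and are given by their values.

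RNA came from 12 macrophage cultures on a C57Bl/6 background, 6 from mice labelled LysMCre/ErbB4-floxxed (KO, called ErbB4myeKO) and 6 from mice labelled ErbB4-floxxed (WT, called ErbB4FF). The 2 groups thus share the floxed ErbB4 allele and differ by the Cre recombinase, which is driven by the lysozyme M gene and acts in myeloid cells at large. Marrow was grown in medium conditioned by M-CSF-producing cells, and every culture received IFN-γ at 100 U/mL for 16 h and then LPS at 100 ng/mL for 6 h, so no resting macrophages are among these samples. Each ErbB4FF culture had an ErbB4myeKO littermate, 1 pair from each of 6 litters, which the labels mark with a batch letter. The age and sex of each mouse are not given in the labels.

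Receptors of this family bind trimeric ligands outside the cell. Some, such as Fas and TNF receptor 1, carry a death domain inside the cell that can recruit FADD or TRADD and lead to caspase-8 activation. Others, such as CD40 and TNF receptor 2, bind TRAF adaptors and act mainly through NF-κB and MAP kinases. In macrophages the family serves inflammatory activation, T cell help through CD40, survival and death, and, through RANK, the path to osteoclasts.

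The targeted gene was checked first. Erbb4 lay between 0.280 and 0.852 TPM in the libraries labelled ErbB4myeKO and between 0.372 and 0.716 TPM in those labelled ErbB4FF, and it was higher in the library labelled ErbB4myeKO in 4 of 6 litters (exact permutation p = 0.25, two-sided, over the 64 swaps of genotype within litters). Its level therefore did not separate the genotypes, and the groups below are those of the labels. A TPM summed over whole transcripts does not tell a transcript that lacks the deleted exon from an intact one. The macrophage markers Adgre1, Cd68, Csf1r, Itgam, Lyz2 and Fcgr1 were above 0 in all 12 libraries. Their sum was 4821 to 9794 TPM in ErbB4myeKO and 5042 to 14800 TPM in ErbB4FF, lower in the ErbB4myeKO littermate in 5 of 6 litters. Most of it was Lyz2, the gene whose promoter drives the Cre. Lyz2 was lower in ErbB4myeKO in litters 1 to 5, with 4272 against 8370 TPM in litter 1. Litter 6 went the other way, with 7997 TPM in ErbB4myeKO and 2964 TPM in ErbB4FF. Whether the labels of litter 6 hold was not tested, and the pair is used as labelled. Fcgr1 was lower in ErbB4myeKO in all 6 litters and Itgam in all but litter 6, while Adgre1, Cd68 and Csf1r went both ways. The part of these markers in the receptor values was not tested. Of the other cell types checked, 5 T cell markers summed to at most 0.411 TPM and 5 B cell markers to at most 2.03 TPM. The 6 dendritic cell markers summed to 8.95 to 33.4 TPM in ErbB4myeKO and 4.47 to 25.5 TPM in ErbB4FF, higher in the ErbB4myeKO littermate in all 6 litters. Xcr1 was at 2.56 to 29.0 TPM and was lower in the ErbB4myeKO culture of litter 5, Zbtb46 was lower in ErbB4myeKO in 4 of 6 litters, Siglech and Cd209a were at 0 in all 12 libraries and Flt3 was at most 0.0789 TPM, and the part of this list in the receptor values was not tested. Proliferation markers summed to 12.7 to 44.2 TPM. The 8 neutrophil markers summed to between 37.6 and 69.9 TPM in litters 1 to 4 and to between 146 and 360.2 TPM in litters 5 and 6, with Ly6g at 0 in 8 libraries and Retnlg at 0 in 12. Litters 5 and 6 also stood apart by the Y-linked Ddx3y, which was at 0 in both littermates there and at 9.81 TPM or more elsewhere, and litter 5 by the share of all TPM that the listed transcripts held, 71.4% and 74.7% against 59.0% to 64.9% in the other 10 libraries.

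The promoters of the receptors that hold a match to an interferon or NF-κB motif are shown first, because both stimuli given to the cells act through factors that bind such sequences. The RefSeq (GRCm38.p6) start sites used were 9, for 8 of the 10 receptors. Cd40 and Tnfrsf10b had none there and were not searched. The 250 bases before each start site were searched on both strands for 3 motifs. These were the gamma-activated site (GAS, TTCNNNGAA), the interferon-stimulated response element (ISRE, GAAA and GAAA with any 2 bases between) and the NF-κB motif. No match overlapped a match to another of the 3 motifs in the receptor windows. Matches are in capitals, each sequence is read 5′ to 3′ on the strand of its gene, and the ISRE matches below lie on the other strand. Capitals in the Tnfrsf1b window, chr4:145246871-145247120 on the minus strand, mark a GAS match that begins 181 bases before the start site and an ISRE match that begins 10 bases before it. Those of Tnfrsf1a, chr6:125349473-125349722 on the plus strand, mark a GAS match. So do those of Fas, chr19:34290409-34290658 on the plus strand. In Tnfrsf14, chr4:154928078-154928327 on the minus strand, they mark an ISRE match. In the downstream start site of Tnfrsf9, chr4:150927749-150927998 on the plus strand, they mark a GAS match and 2 overlapping NF-κB matches.
Tnfrsf1b: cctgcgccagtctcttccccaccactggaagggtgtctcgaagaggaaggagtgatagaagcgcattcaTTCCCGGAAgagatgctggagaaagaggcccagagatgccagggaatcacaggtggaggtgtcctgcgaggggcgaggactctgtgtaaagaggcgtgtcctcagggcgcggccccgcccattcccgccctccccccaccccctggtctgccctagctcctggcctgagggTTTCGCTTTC
Tnfrsf1a: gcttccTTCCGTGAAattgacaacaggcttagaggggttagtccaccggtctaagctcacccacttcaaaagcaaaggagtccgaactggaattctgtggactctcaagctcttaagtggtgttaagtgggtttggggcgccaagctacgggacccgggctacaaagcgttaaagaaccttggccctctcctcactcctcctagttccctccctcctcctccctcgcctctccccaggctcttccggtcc
Fas: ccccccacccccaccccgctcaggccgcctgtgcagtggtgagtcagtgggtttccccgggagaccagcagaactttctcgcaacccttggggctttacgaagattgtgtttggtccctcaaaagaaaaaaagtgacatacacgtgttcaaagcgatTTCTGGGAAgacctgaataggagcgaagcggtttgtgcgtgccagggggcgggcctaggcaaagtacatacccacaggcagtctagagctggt
Tnfrsf14: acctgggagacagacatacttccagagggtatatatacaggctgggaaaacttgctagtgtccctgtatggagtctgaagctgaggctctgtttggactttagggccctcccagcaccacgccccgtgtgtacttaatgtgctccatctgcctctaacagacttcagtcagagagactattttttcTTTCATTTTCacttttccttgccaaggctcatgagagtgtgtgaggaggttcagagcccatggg
Tnfrsf9: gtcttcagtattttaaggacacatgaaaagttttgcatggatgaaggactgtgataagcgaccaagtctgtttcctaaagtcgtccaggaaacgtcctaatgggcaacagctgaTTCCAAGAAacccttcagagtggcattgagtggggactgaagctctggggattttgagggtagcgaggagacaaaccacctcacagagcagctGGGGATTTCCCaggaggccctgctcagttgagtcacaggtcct

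The start sites of Tnfrsf1a, Tnfrsf11a and Tnfrsf14 and both of those of Tnfrsf9 lie inside the span of the gene in the annotation used for the coordinates below, which begins further upstream. GAS matches stood in 7.02% of the 32851 promoter windows of that length, ISRE matches in 2.98% and NF-κB matches in 7.25%. Windows of Tnfrsf21, Ltbr, Tnfrsf11a and the upstream start site of Tnfrsf9 held none of these letters. A match is a description of the sequence and says nothing on binding in these cells. The receptor promoters with a match belonged both to the most abundant receptor, Tnfrsf1b, and to the least abundant, Tnfrsf9.

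Receptor transcripts differed widely in level. In bulk RNA, fewer cells of a type and less RNA per cell cannot be told apart, which holds for every value below. Tnfrsf1b, which encodes TNF receptor 2, had a mean of 715.7 TPM over the 12 libraries and ranked 141 of all 22243 genes. Tnfrsf1a, which encodes TNF receptor 1, followed at 139.2 TPM and Cd40, the receptor for CD40 ligand on T cells, at 132.4 TPM. Fas, a death receptor, had 68.4 TPM, and Ltbr, the lymphotoxin β receptor, 50.05 TPM. Tnfrsf14 (HVEM, a receptor for LIGHT) had 18.3 TPM and Tnfrsf11a (RANK, the receptor for RANKL) 13.2 TPM. The remaining members were Tnfrsf21 (death receptor 6) at 1.28 TPM, Tnfrsf10b (a mouse receptor for TRAIL) at 0.861 TPM and Tnfrsf9 (4-1BB) at 0.154 TPM.

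**Figure D1:**
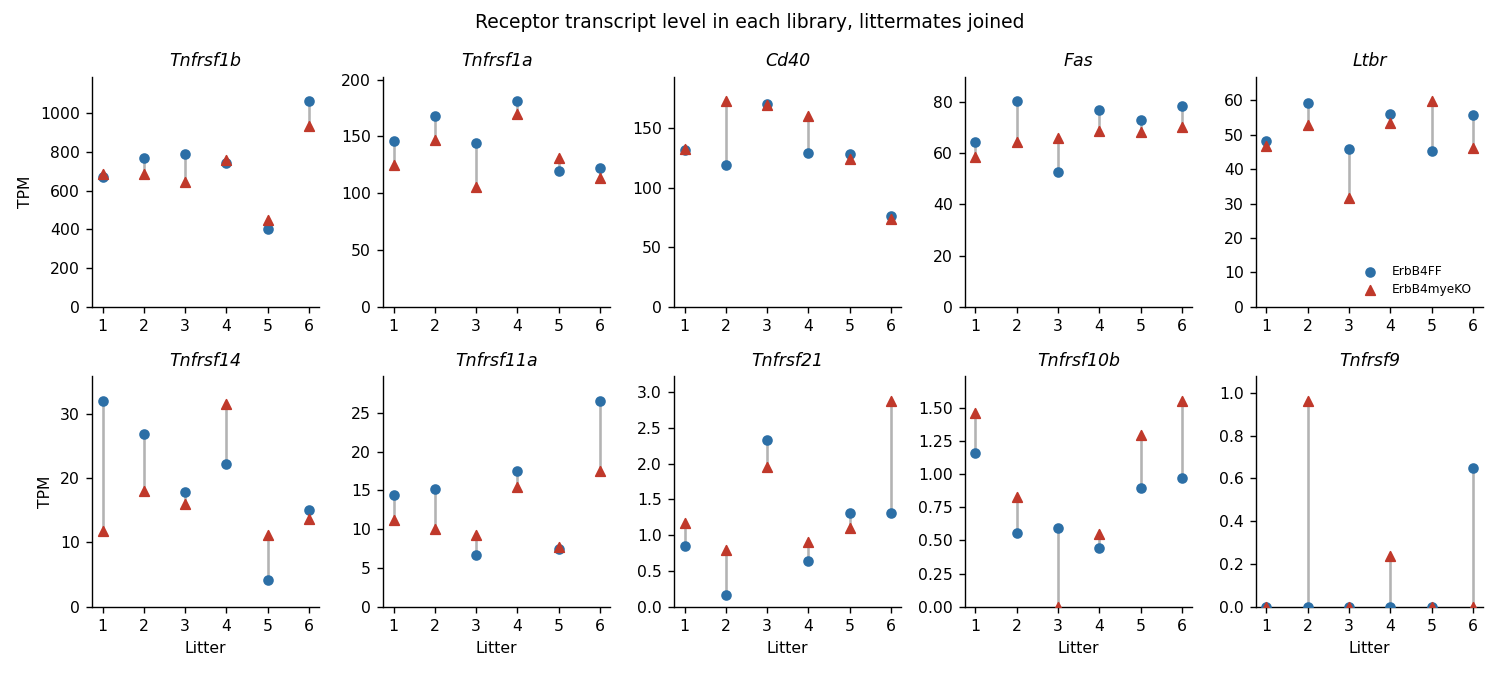
TPM of each receptor (a panel each, linear axis from 0) by litter in the 6 ErbB4myeKO (triangles) and 6 ErbB4FF (circles) cultures, littermates joined by lines. Tnfrsf1b lies between 401.5 and 1061 TPM, above every other receptor in all 12 libraries, while Tnfrsf21, Tnfrsf10b and Tnfrsf9 stay at or below 2.88 TPM.

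Not every step in that order held within libraries. Tnfrsf1b was above Tnfrsf1a in 12 of 12 libraries, with means 5.14-fold apart and ranges that did not overlap. Tnfrsf1a was above Cd40 in 7 of 12 libraries only, and the order of these neighbours was not settled. Cd40 was above Fas in 11 libraries, and Fas above Ltbr and Ltbr above Tnfrsf14 in all 12. Tnfrsf14 was above Tnfrsf11a in 9 libraries. Tnfrsf11a was above Tnfrsf21 in all 12, with means 10.3-fold apart and no overlap of the ranges. Tnfrsf21 was above Tnfrsf10b in 7 libraries, so this pair was not ordered either.

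Tnfrsf1b made up between 51.4% and 73.8% of the summed TPM of the 10 receptors, with a median of 61.1%. The share of Tnfrsf1a ranged from 8.50% to 15.3% and that of Cd40 from 5.32% to 16.4%. The ratio of Tnfrsf1b to Tnfrsf1a TPM stood at 8.24 and 8.68 in the ErbB4myeKO and ErbB4FF cultures of litter 6, at 3.44 and 3.35 in litter 5, and between 4.10 and 6.11 in the others. It was higher in the ErbB4myeKO littermate in 5 of 6 litters, by little in litter 2 (4.67 against 4.60) and litter 5 (3.44 against 3.35). Of single genes, 13.9% were higher in ErbB4myeKO in at least 5 litters, and the ratio was not tested. The receptor transcripts of litter 6 were thus the most dominated by TNF receptor 2.

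Between genotypes, no receptor passed the test. Of the 8 receptors tested, 0 had an adjusted p under 0.05 (limma with litter as a block, Benjamini-Hochberg over all genes), against 0.0% of the 8780 genes. At an unadjusted p under 0.05 the numbers were 0 of 8 receptors and 721 genes, 8.21%. The mean was lower in ErbB4myeKO for 6 of 8 receptors and for 50.2% of all genes, with a median log2 difference of -0.08 for the receptors and -0.001 for all genes. Leaving out 1 litter moved the receptor median between -0.16 (without litter 5) and -0.04 (without litter 3, and -0.05 without litter 2). All 6 litters moved the same way for 0 of 8 receptors in either direction, against 2.51% of genes for higher and 2.31% for lower in ErbB4myeKO. At least 5 litters were lower for 3 of 8 receptors (Tnfrsf1a, Fas and Ltbr), against 14.3% of genes, and higher for 0 of 8, against 13.9%. A difference below is the log2 change of TPM + 0.5 from ErbB4FF to ErbB4myeKO, a scale that understates changes of low genes. The exact permutation test over litters cannot go below p = 0.0312.

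Both TNF receptors are described first. Tnfrsf1b (ENSMUSG00000028599, chr4:145213463-145246870) had a lowest, median and highest value of 449.6, 685.8 and 934.0 TPM in ErbB4myeKO and 401.5, 755.7 and 1061 TPM in ErbB4FF (means 692.6 ± 157.5 and 738.9 ± 212.4, SD, n = 6). These groups overlapped almost fully, litter 5 being the lowest and litter 6 the highest in both. The difference was -0.07 (SE 0.07, limma adjusted p = 0.771), with a 95% interval from 0.847-fold to 1.07-fold, and the ErbB4myeKO littermate was higher in 3 litters and lower in 3. It was -0.03 without litter 3 and -0.12 without litter 5. Tnfrsf1a (ENSMUSG00000030341, chr6:125349362-125362484), whose death domain binds TRADD, had 105.2, 127.6 and 169.5 TPM in ErbB4myeKO and 119.9, 144.8 and 180.8 TPM in ErbB4FF (means 131.6 ± 23.4 and 146.7 ± 24.2, SD, n = 6). Values were lower in the ErbB4myeKO littermate in 5 of 6 litters, litter 5 excepted, and the groups overlapped. The difference was -0.16 (SE 0.08, limma adjusted p = 0.603, exact permutation p = 0.125), with a 95% interval from 0.790-fold to 1.02-fold. It was the smallest unadjusted p among the 8 receptors tested, 0.0803. Single litters moved it both ways, to -0.10 without litter 3 (an unadjusted limma p of 0.198) and to -0.21 without litter 5 (an unadjusted limma p of 0.0242 and an adjusted p of 0.499).

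Fas (ENSMUSG00000024778, chr19:34290666-34327772), which triggers apoptosis when bound by Fas ligand, had 58.5, 67.1 and 70.2 TPM in ErbB4myeKO and 52.4, 74.8 and 80.1 TPM in ErbB4FF. ErbB4FF thus held both the lowest and the highest Fas values, and ErbB4myeKO was lower in 5 litters and higher in litter 3. The difference was -0.09 (SE 0.09, limma adjusted p = 0.756), from 0.816-fold to 1.08-fold. It was -0.04 without litter 2 (an unadjusted limma p of 0.640) and -0.17 without litter 3 (an unadjusted limma p of 0.0265 and an adjusted p of 0.515). Tnfrsf21 and Tnfrsf10b, which also carry death domains, were scarce. Tnfrsf21 (ENSMUSG00000023915) had 0.796, 1.13 and 2.88 TPM in ErbB4myeKO and 0.165, 1.08 and 2.33 TPM in ErbB4FF, with a difference of 0.34 (SE 0.23, limma adjusted p = 0.663). Litters differed by more than genotypes here, the interval, 0.876-fold to 1.84-fold, was wide, and the difference was 0.22 without litter 2 and 0.53 with a pseudocount of 0.1. Tnfrsf10b (ENSMUSG00000022074) had 0, 1.06 and 1.56 TPM in ErbB4myeKO and 0.444, 0.746 and 1.16 TPM in ErbB4FF, and the ErbB4myeKO culture of litter 3 was the only library in which it was listed at 0. The ErbB4myeKO littermate was higher in the other 5 litters (exact permutation p = 0.844).

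Receptors that act mainly through TRAF adaptors came next. Cd40 (ENSMUSG00000017652, chr2:165055627-165072948) had 74.1, 146.3 and 172.5 TPM in ErbB4myeKO and 76.6, 128.5 and 170.6 TPM in ErbB4FF. Both cultures of litter 6 were low and the other 10 lay at 119.4 TPM or above, and the ErbB4myeKO littermate was higher in 3 litters, by most in litter 2. The difference was 0.12 (SE 0.09, limma adjusted p = 0.695), from 0.938-fold to 1.27-fold, and 0.04 without litter 2. Ltbr (ENSMUSG00000030339, chr6:125306571-125313885) had 31.7, 49.8 and 59.7 TPM in ErbB4myeKO and 45.3, 51.8 and 59.3 TPM in ErbB4FF. Litter 5 was the exception again, with a higher value in the ErbB4myeKO littermate against lower ones in the other 5. The difference was -0.11 (SE 0.11, limma adjusted p = 0.763), from 0.771-fold to 1.11-fold, with -0.03 without litter 3 and -0.21 without litter 5.

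Tnfrsf14 (ENSMUSG00000042333, chr4:154921933-154928563) was the most variable of the receptors above 10 TPM. Its values were 11.1, 14.7 and 31.5 TPM in ErbB4myeKO and 4.11, 20.0 and 32.0 TPM in ErbB4FF. The log2 ratio of the littermates was -1.41 in litter 1 and 1.33 in litter 5, so the litters went opposite ways. The difference was -0.07 (SE 0.32, limma adjusted p = 0.948), and it turned to 0.19 without litter 1 and to 0.03 without litter 2, and went to -0.19 without litter 4 and -0.35 without litter 5. Tnfrsf11a (ENSMUSG00000026321, chr1:105780718-105847981) had 7.65, 10.6 and 17.5 TPM in ErbB4myeKO and 6.69, 14.8 and 26.6 TPM in ErbB4FF. Litter 6 held its highest values in both genotypes. The difference was -0.20 (SE 0.15, limma adjusted p = 0.686), from 0.687-fold to 1.10-fold, and it was -0.13 without litter 2, -0.12 without litter 6 and -0.33 without litter 3, the last with an unadjusted limma p of 0.0278 and an adjusted p of 0.515. Osteoclast markers summed to 70.1 and 83.4 TPM in litter 6 and to at most 47.1 TPM elsewhere, and in litter 6 nearly all of it was Acp5, at 65.3 and 80.05 TPM. Ctsk, Ocstamp and Dcstamp were not highest in litter 6, Calcr and Oscar were at 0 in all 12 libraries, and the part of this list in the Tnfrsf11a level was not tested. Tnfrsf9 (ENSMUSG00000028965), a costimulatory receptor of T cells, was listed at 0 in 9 of 12 libraries and had at most 0.962 TPM.

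**Figure D2:**
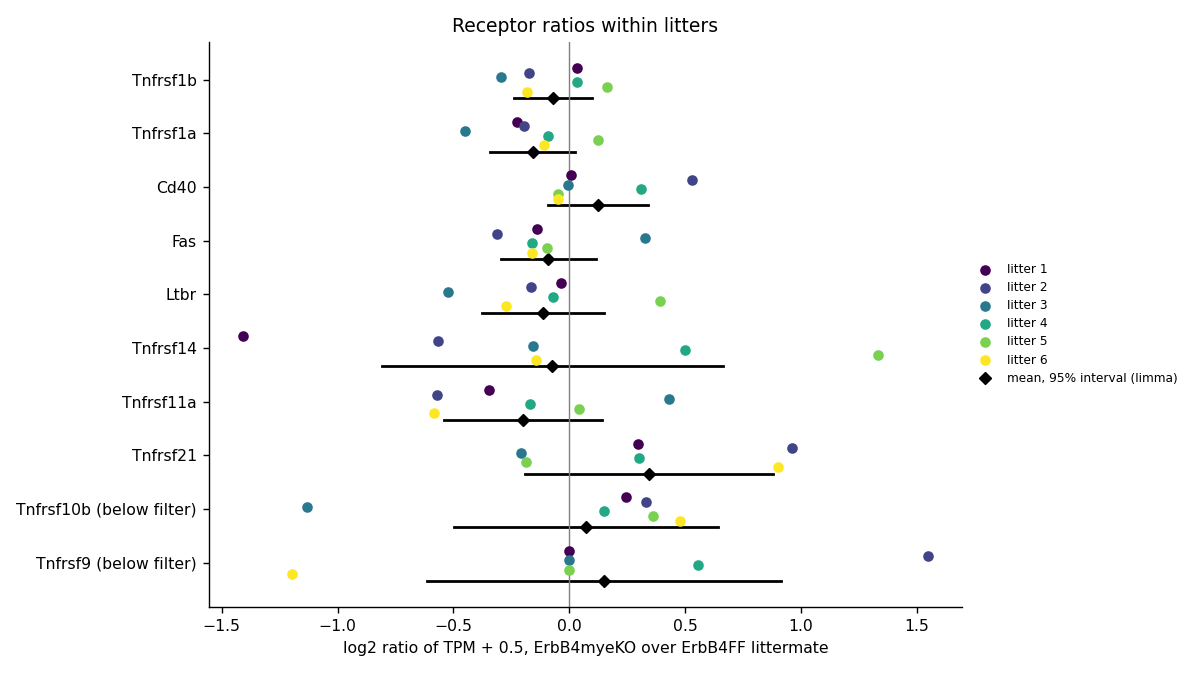
Log2 ratio of TPM + 0.5 in the ErbB4myeKO culture over its ErbB4FF littermate, 1 point per litter, with the limma mean and 95% interval (diamond and bar) for each receptor. Every interval crosses 0, and those of Tnfrsf1b and Tnfrsf1a are the narrowest while those of Tnfrsf14 and Tnfrsf9 are wide.

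Most of the spread of Tnfrsf1b, Cd40 and Tnfrsf11a lay between litters. With neither an effect of litter nor of genotype, the degrees of freedom alone would give litter 45.5%, genotype 9.09% and the remainder 45.5%. For Tnfrsf1b, 94.7% of the sum of squares of log2(TPM + 0.5) lay between litters, 0.881% between genotypes and 4.47% in the remainder. Cd40 followed with 89.4% between litters and Tnfrsf11a with 86.5%, whereas Fas had 58.2% and Ltbr 59.95%, much nearer to that share. Over all genes tested the mean share was 73.7% for litter, 5.30% for genotype and 21.0% for the remainder. The genotype share was largest for Tnfrsf1a, at 11.3% on 1 degree of freedom, against 13.4% in the remainder on 5. The 9.09% holds only with no effect of litter, which took 75.4% here, so it is no yardstick for that share. The SD of the 6 log2 ratios was 0.17 for Tnfrsf1b and 0.19 for Tnfrsf1a, and 14.5% and 18.3% of genes had a smaller one. That of Tnfrsf14 was 0.93, above 87.0% of genes.

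**Figure D3:**
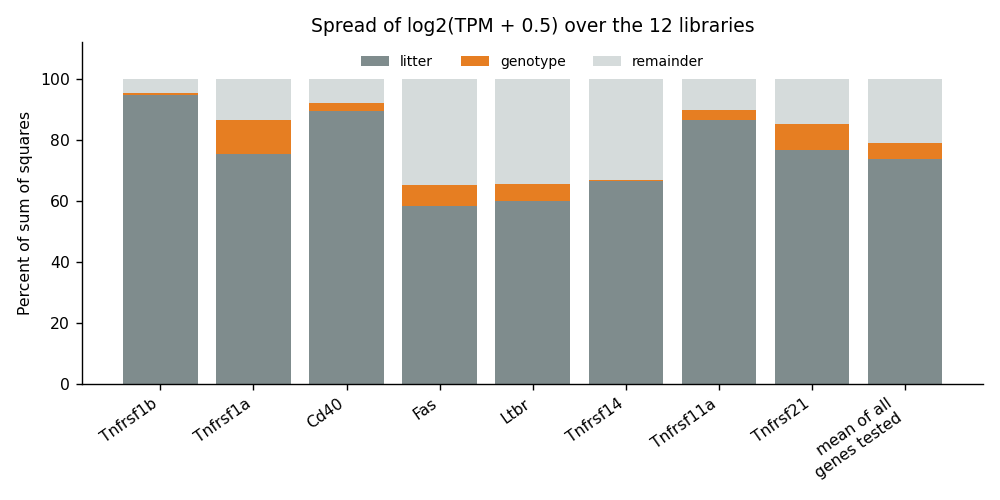
Share of the sum of squares of log2(TPM + 0.5) between litters, between genotypes and in the remainder for the 8 receptors tested, beside the mean share over all 8780 genes. The litter share runs from 58.2% for Fas to 94.7% for Tnfrsf1b and the genotype share is at most 11.3%. With neither an effect of litter nor of genotype these would be 45.5% and 9.09%.

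Across the 12 libraries the receptors did not move as 1 block. The closest pair was Tnfrsf1b and Tnfrsf11a, with a Pearson r of 0.74 on log2(TPM + 0.5), followed by Tnfrsf1a with Ltbr at 0.65. Tnfrsf1a and Tnfrsf21 ran opposite ways, r = -0.72, as did Cd40 and Tnfrsf11a, r = -0.65. The 2 TNF receptors were nearly unrelated, r = 0.14. These are descriptions over 12 libraries that share litters and batch, and litter 6 holds the highest values of Tnfrsf1b and Tnfrsf11a and the lowest of Cd40.

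Among all genes tested, those closest to each receptor over the 12 libraries were named, again by Pearson r and as a description. Tnfrsf1b ran closest to Sgms1, Slc28a2 and Ehbp1l1, each at about 0.95. Tnfrsf1a was nearest to Lrp10, Ttc7 and Trafd1, at 0.92 each. For Cd40 the genes were Smarce1 (0.97), Nufip1 (0.95) and Ppp1r15a (0.94). Fas had Sh3bgrl, Pick1 and Traf3ip3, at 0.93, 0.93 and 0.92, and Ltbr had Zdhhc7, Snx8 and Dok2, at 0.95, 0.93 and 0.91. Tnfrsf14 had Tmem19, Snx14 and Irf2, at 0.92, 0.91 and 0.88. Tnfrsf11a had Selenot, Tmem8 and Arhgef18, at 0.98, 0.91 and 0.91, and Tnfrsf21 had Rgs19, Srxn1 and Prep, at 0.91, 0.91 and 0.90. None of these 24 genes is another of the 10 receptors.

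The ligands of the receptors were present at very different levels in the same cultures. Tnf, the ligand of both TNF receptors, had a mean of 2387 TPM and ranged 7.03-fold over the 12 libraries, from 793.7 to 5576 TPM, while Tnfrsf1b ranged 2.64-fold and Tnfrsf1a 1.72-fold. Tnfsf9, the ligand of 4-1BB, had a mean of 50.9 TPM, although its receptor was listed at 0 in 9 libraries. Tnfsf10 (TRAIL) had 16.4 TPM against 0.861 TPM for Tnfrsf10b, the receptor for it among those followed here. The reverse held for CD40 and Fas, whose ligands Cd40lg and Fasl were listed at 0 in 11 and 10 of 12 libraries. Lta and Ltb, the lymphotoxin subunits, had means of 3.52 and 1.25 TPM, Tnfsf14 (LIGHT) 0.360 TPM and Tnfsf11 (RANKL) 0.155 TPM. A gene listed at 0 here may also be a failed estimate, since Traf3 and Map3k7, which most cells use, were each listed at 0 in 1 library.

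**Figure D4:**
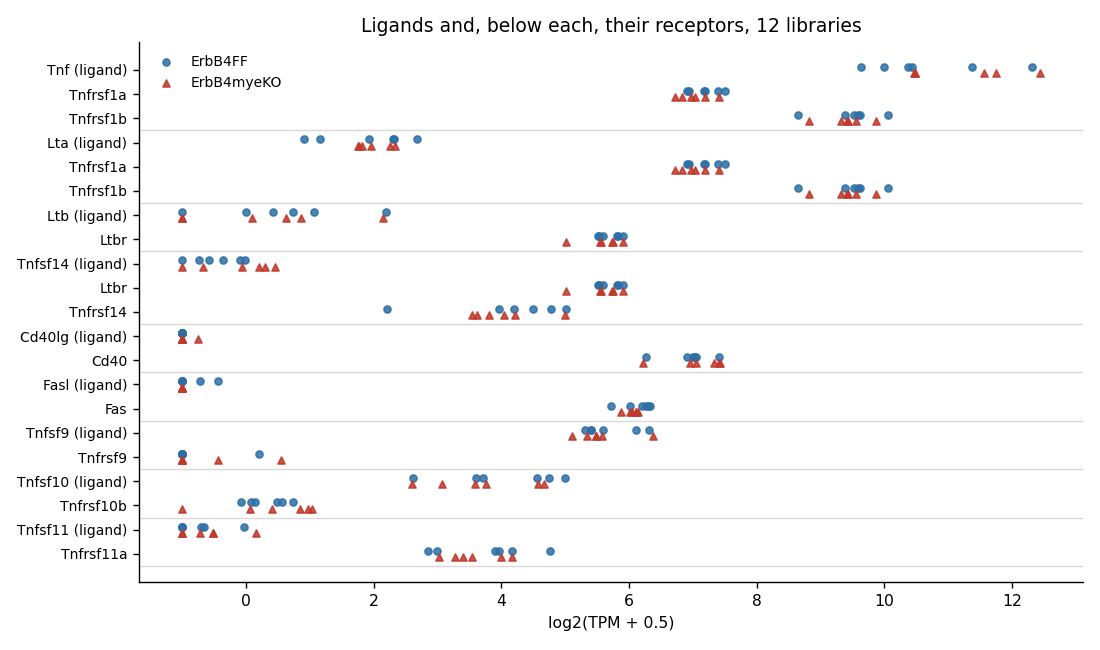
Level of each ligand and, below it, of its receptors as log2(TPM + 0.5), 1 point per library (circles ErbB4FF, triangles ErbB4myeKO), where -1 stands for 0 TPM. Tnf, with a mean of 2387 TPM, is above both of its receptors in each of the 12 libraries, while most points of Cd40lg and Fasl lie at 0 TPM beside Cd40 at 132.4 and Fas at 68.4 TPM.

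Downstream adaptors and effectors were read from a list of 26 genes, all of which passed the expression filter. Traf1, a TRAF induced by NF-κB, had a mean of 485.7 TPM, Tnfaip3 (A20, a brake on NF-κB) 384.5 TPM and Cflar (an inhibitor of caspase-8) 282.5 TPM, against 59.2 TPM for Casp8 and 3.06 TPM for Fadd. Of these 26 genes, 0 passed at an adjusted p under 0.05, and 1 was higher and 1 lower at an unadjusted p under 0.05, against 3.83% and 4.38% of all genes. Adam17, the protease that sheds TNF and both TNF receptors from the cell surface, was higher in the ErbB4myeKO littermate in 5 of 6 litters, at 60.3 to 141.2 TPM against 49.1 to 130.0 TPM. Its difference was 0.16 (SE 0.06, limma adjusted p = 0.603, exact permutation p = 0.0625). Otulin, which removes linear ubiquitin chains from receptor complexes, was lower in 5 litters, at 17.0 to 40.1 TPM against 27.3 to 41.8 TPM, with a difference of -0.29 (SE 0.11, limma adjusted p = 0.603, exact permutation p = 0.0938).

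Among the 18 ligands, 9 passed the filter, and 1 was higher and 1 lower at an unadjusted limma p under 0.05, against 3.83% and 4.38% of all genes. In all 6 litters 2 ligands were higher and 1 lower, against 2.51% and 2.31% of all genes. Tnf was higher in all 6, with 1418 to 5576 TPM in ErbB4myeKO and 793.7 to 5125 TPM in ErbB4FF, groups that overlapped. Its difference was 0.51 (SE 0.23, limma adjusted p = 0.603, exact permutation p = 0.0312), with log2 ratios under 0.2 in 4 of 6 litters and 1.76 in litter 2, without which the mean was 0.26. Tnfsf15 (TL1A), the ligand of death receptor 3, was higher in all 6 litters, with a difference of 0.45 (SE 0.14, limma adjusted p = 0.603, exact permutation p = 0.0312). Its values differed by litter far more than by genotype, with 84.0 and 78.2 TPM in litter 1 and 4.45 and 4.10 TPM in litter 5. Tnfsf10 was lower in all 6, with a difference of -0.33 (SE 0.13, limma adjusted p = 0.603, exact permutation p = 0.0312). Its log2 ratios were under 0.2 in size in 3 of 6 litters. They were -0.80 in litter 2, without which the mean was -0.23, and -0.64 in litter 6, without which it was -0.27. Of 18 other receptors of the family, 4 passed the filter and 0 had an unadjusted limma p under 0.05. Among these Tnfrsf8 (CD30) was lower in all 6 litters, with a difference of -0.30 (SE 0.20, limma adjusted p = 0.668, exact permutation p = 0.0312). Litter 5 carried that value, with a log2 ratio of -1.41 against -0.15 to -0.00379 in the others, and without it the mean was -0.07. The median log2 difference was -0.07 for the ligands, 0.20 for the 4 other receptors and 0.01 for the adaptors and effectors. Leaving out 1 litter gave medians from -0.13 to 0.00525 for the ligands (0.00525 without litter 3, -0.13 without litter 6), from 0.12 to 0.24 for the other receptors (0.05 over the 16 fitted without the filter) and from -0.03 (without litter 5) to 0.04 for the adaptors and effectors, which stood at -0.01 with the top transcript of each gene alone.

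**Figure D5:**
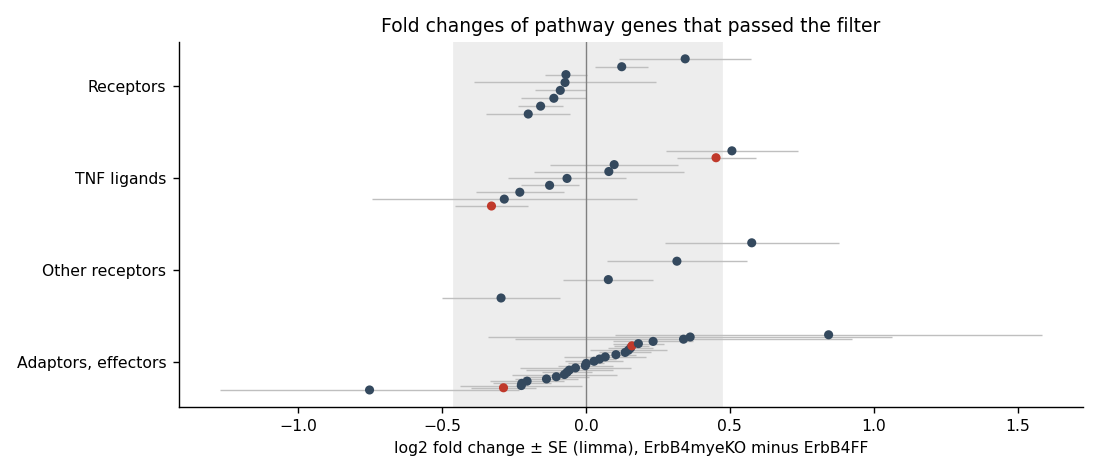
Log2 difference (ErbB4myeKO minus ErbB4FF, bars 1 SE) of each gene that passed the filter in 4 lists: the receptors, their ligands, other receptors of the family, and adaptors and effectors. Red points have an unadjusted p under 0.05 and the grey band spans the 5th to 95th percentile of all genes tested, -0.46 to 0.47, which holds all 8 receptors.

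Isoforms and depth limit these values. The table lists principal isoforms only. Of the 31-base words of the listed Fas transcript, counted on another version of it, 99.0% also occur in other annotated transcripts of the gene. The share was 91.3% for Tnfrsf14 and 90.5% to 100% for the 3 listed Tnfrsf9 transcripts. Their TPM, the zeros of Tnfrsf9 included, thus depends on how reads were shared among isoforms. For Tnfrsf1a the share was 59.6% and for Cd40 56.2%, against 8.37% for Tnfrsf1b, so the levels of Tnfrsf1a and Cd40 depend on it in part. The geometric mean of normalized estimated counts, from the authors' mean of natural log values over all libraries, was about 16170 for Tnfrsf1b, 1731 for Tnfrsf1a, 23.96 for Tnfrsf21 and 12.8 for Tnfrsf10b, and a single library's count was not analysed here.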

How the data were processed

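Poly(A) RNA of 12 macrophage cultures was sequenced as stranded 75 bp single-end libraries. The authors pseudoaligned reads with kallisto and deposited TPM of principal isoforms (build mm10 per the labels; kallisto version and transcript release are not given in the sources used here). The deposited table also holds the authors' sleuth test columns, which were not used, and 1 pooled column, the natural log of normalized estimated counts averaged over libraries, whose back-transformed values (geometric means) served only to show depth. TPM carries no depth per library, so counting error per value is unknown.

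Repeated lines (405) were dropped and TPM summed per gene. limma 3.58.1 (R 4.3.3) was fitted to log2(TPM + 0.5) of 8780 genes whose mean reached 1 TPM, with litter as a block and a trended prior, and Benjamini-Hochberg adjustment over all. The study paired littermates, and deviations of littermates from their group means correlated at 0.27 to 0.77 in all 6 litters. Exact permutation tests were two-sided over 64 swaps within litters. Figures and counts used Python 3.11.15, numpy 2.4.6, pandas 2.3.3 and matplotlib 3.10.9. Coordinates are from GENCODE M21 (GRCm38).

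Alternatives were no block, pseudocounts of 0.1 and 1, no filter and a 5 TPM filter, median-ratio rescaling, limma without trend, the top transcript alone, a Y-linked covariate, and leaving out each litter. Littermates were alike in whether Ddx3y was listed above 0, so the litter block already holds that split. The Y-linked covariate, the mean log2 level of Y-linked genes, was added to the block. It thus carries only differences within pairs and is no adjustment for sex. Members and gene lists were chosen with earlier results of these data known. Named genes were the 10 receptors, Erbb4, their known ligands, list genes with an unadjusted p under 0.05 and the 3 genes closest to each receptor tested; Tnfrsf8 and other adaptors were named after values were seen.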

Additional observations from a re-analysis of the deposited data

Results flagged for a closer look

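Of 30 groups of 6 values examined for the receptors (2 genotypes and the log2 ratios), 5 held a sample far from the others by Dixon's test. Its chance rate of about 1 of 20 is for independent groups of normal values. Here the log2 ratios reuse the TPM values and the Tnfrsf9 groups are mostly 0, so that rate is no yardstick. The Fas log2 ratio of litter 3 was 0.33, the only positive one. The Tnfrsf10b log2 ratio of litter 3 was -1.13, where the ErbB4myeKO culture was listed at 0. Tnfrsf14 stood at 31.5 TPM in the ErbB4myeKO culture of litter 4. Tnfrsf9 stood at 0.962 TPM in the ErbB4myeKO culture of litter 2 and at 0.647 TPM in the ErbB4FF culture of litter 6, in groups otherwise mostly at 0. Litter 3 had the fewest genes above 0, 10214 and 10910 against 11645 or more in the other libraries, and the part of this in its values was not tested.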

How the results depend on the processing

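Under the alternatives, 155 receptor values were recomputed and 0 had an adjusted limma p under 0.05, the smallest being 0.499. Direction reversed in 7 of them, all for Tnfrsf10b, Tnfrsf14 and Tnfrsf9, and the cause was not tested. Tnfrsf10b was 0.07 without the filter, -0.10 with a pseudocount of 0.1, -0.0199 with the Y-linked covariate and -0.10 without litters 5 and 6 (an alternative chosen after seeing the data), and -0.00877 to 0.31 when 1 litter at a time was left out. Leaving out litters in turn gave -0.35 to 0.19 for Tnfrsf14 and -0.13 to 0.42 for Tnfrsf9. Without litters 5 and 6 the difference was -0.41 for Tnfrsf14, 0.53 for Tnfrsf9, -0.20 for Ltbr and 0.21 for Cd40, and with the Y-linked covariate -0.14 for Tnfrsf14 and 0.34 for Tnfrsf9. A pseudocount of 0.1 gave 0.53 for Tnfrsf21 and 0.37 for Tnfrsf9, and a pseudocount of 1 gave 0.09 for Tnfrsf9. Receptors with an unadjusted p under 0.05 numbered 0 to 2 over those fits (2 without litter 3, 1 without litter 5) and 1 without litters 5 and 6 (Tnfrsf1a, -0.24, adjusted p = 0.626). Without the replicate block, which removes the pairing of littermates, 75 genes instead of 721 and 0 instead of 4 list genes had an unadjusted p under 0.05, and no receptor call changed. limma without trend left 2 list genes. Leaving out 1 litter gave 413 to 864 genes (413 without litter 2, 458 without litter 4), 0 to 1 genes at an adjusted p under 0.05 (1 without litter 3) and 1 to 4 list genes (1 without litter 2 or litter 6). With 6 pairs and TPM alone, the intervals and not the p-values show which changes these data could miss.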
